A study of Homo sapiens with 9 samples.

Results

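The genes described here encode AP-1 subunits and other transcription factors of the immediate early response. They are FOS, FOSB, FOSL1, FOSL2, JUN, JUNB, JUND, ATF3, EGR1 and IER2, chosen by name as a gene family with earlier results of these data known. The rule itself uses no measured value. All 10 were among the 20030 genes listed in the deposited tables, and all 10 passed the filter on low counts in every comparison.

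RNA was sequenced from MHCC97L, a human hepatocellular carcinoma (HCC) cell line, and from 2 drug-resistant lines derived from it. MHCC97L received no drug. MHCC97L-Src was made by raising the dose of saracatinib, an inhibitor of Src family kinases, until the cells tolerated 4 μmol/L, and MHCC97L-Oxa tolerated 2 μmol/L of oxaliplatin, a platinum drug that crosslinks DNA. Each line gave 3 libraries, which the study calls independent experiments. All lines shared the same medium with fetal bovine serum. Whether a resistant line is a clone or a mixed population, and whether the drug was present when RNA was taken, is not given in the sources used here. The comparisons of MHCC97L-Src and of MHCC97L-Oxa with MHCC97L use the same 3 parental libraries.

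AP-1 is a dimer of basic leucine zipper (bZIP) proteins. Jun proteins pair with each other or with Fos proteins, whereas Fos proteins need a partner such as a Jun protein, and the dimer binds DNA sites in many genes of proliferation, invasion and stress. FOS, JUN, EGR1 and IER2 are transcribed within minutes of a growth factor, serum or stress signal, largely through MAP kinases, and their RNA is short-lived. JUND is less inducible and is present in resting cells, and in liver JUN is known for its part in hepatocyte survival and tumour formation.

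Library totals ran from 16970486 to 18209213 gene counts. The liver label was checked against 13 hepatocyte and HCC markers, and ALB, AFP, APOB, TTR, FGB and GPC3 stood at or under 3 counts in all libraries of all 3 lines. KRT8 and KRT18, keratins of simple epithelia, reached a mean of 653 and 643 FPKM (fragments scaled to transcript length and library size) in MHCC97L-Oxa, 1140 and 1140 FPKM in the saracatinib-resistant line and 1290 and 803 FPKM in parental cells. MHCC97L replicate 1 stood apart from the other libraries. Its deviation in log2 CPM (counts scaled to the library total) from the mean of all libraries had a Spearman correlation across genes of -0.781 with GC content, against -0.255 and 0.299 in the other parental libraries and 0.166 to 0.699 in the resistant lines. Replicate 1 also had the lowest parental count of 7 of the 10 genes (FOS, FOSL1, FOSL2, JUN, JUNB, JUND and IER2). The share of all genes lowest in replicate 1 is not given here. Transcripts of the 7 genes range in GC content from 52.6% in FOS to 69.7% in JUND. EGR1 (55.4%) and FOSB (57.7%) lie within that range and were lowest in replicates 2 and 3, and ATF3 (46.7%) was lowest in replicate 3. The log2 fold changes of the 10 genes against MHCC97L are therefore also given without that library and with a GC and length correction of the counts.

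Short stretches of 4 promoters are shown because FOS, JUN and JUNB carry the differences described below and JUND is the Jun gene without a called difference. The sequences are from RefSeq (GRCh38.p14), 30 bases 5′ to 3′ on the strand of the gene, and the capitals mark the match to a searched motif. The FOS stretch is chr14:75278752-75278781 (+ strand), with the match from -64 to -60 relative to the start site. The JUN stretch is chr1:58784096-58784125 (- strand), with the match from -67 to -60, and GENCODE release 29 starts JUN further upstream, so that the stretch lies inside its only exon there. The JUNB stretch is chr19:12791337-12791366 (+ strand), with the match from -137 to -133. The JUND stretch is chr19:18281804-18281833 (- strand), with the match from -200 to -193.
FOS: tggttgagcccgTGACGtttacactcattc
JUN: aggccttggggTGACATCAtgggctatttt
JUNB: gcttcctgacagTGACGcgagccgcctcct
JUND: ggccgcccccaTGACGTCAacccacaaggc

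RefSeq promoters, from 250 bases before to 50 bases after the start, were found for 9 of the genes, all but FOSL1, and 6 motifs were searched on both strands. TGACG, which is also part of TGACGTCA on either strand, was found in 8 of these 9 genes and in 24.6% of all 35116 promoters. TGACGTCA, the core of the cAMP response element, was found in JUND and in 1.85% of promoters, and its variant TGACATCA in JUN and ATF3 and in 2.61%. TGANTCA, a pattern that includes the AP-1 site but is broader than it, was found in FOSL2 and in 7.71% of promoters. Within this window the CArG box, bound by serum response factor, was found only in EGR1 among the 9 genes, at -105 to -96 and at -83 to -74. It was found in 1.29% of promoters. Sequence further upstream, of FOS or any other gene, was not searched, so a CArG box there would be missed. CCAAT was found in JUN, JUNB, JUND and ATF3 and in 34.6% of promoters. A match describes these letters and no site of binding was measured.

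**Figure D1:**
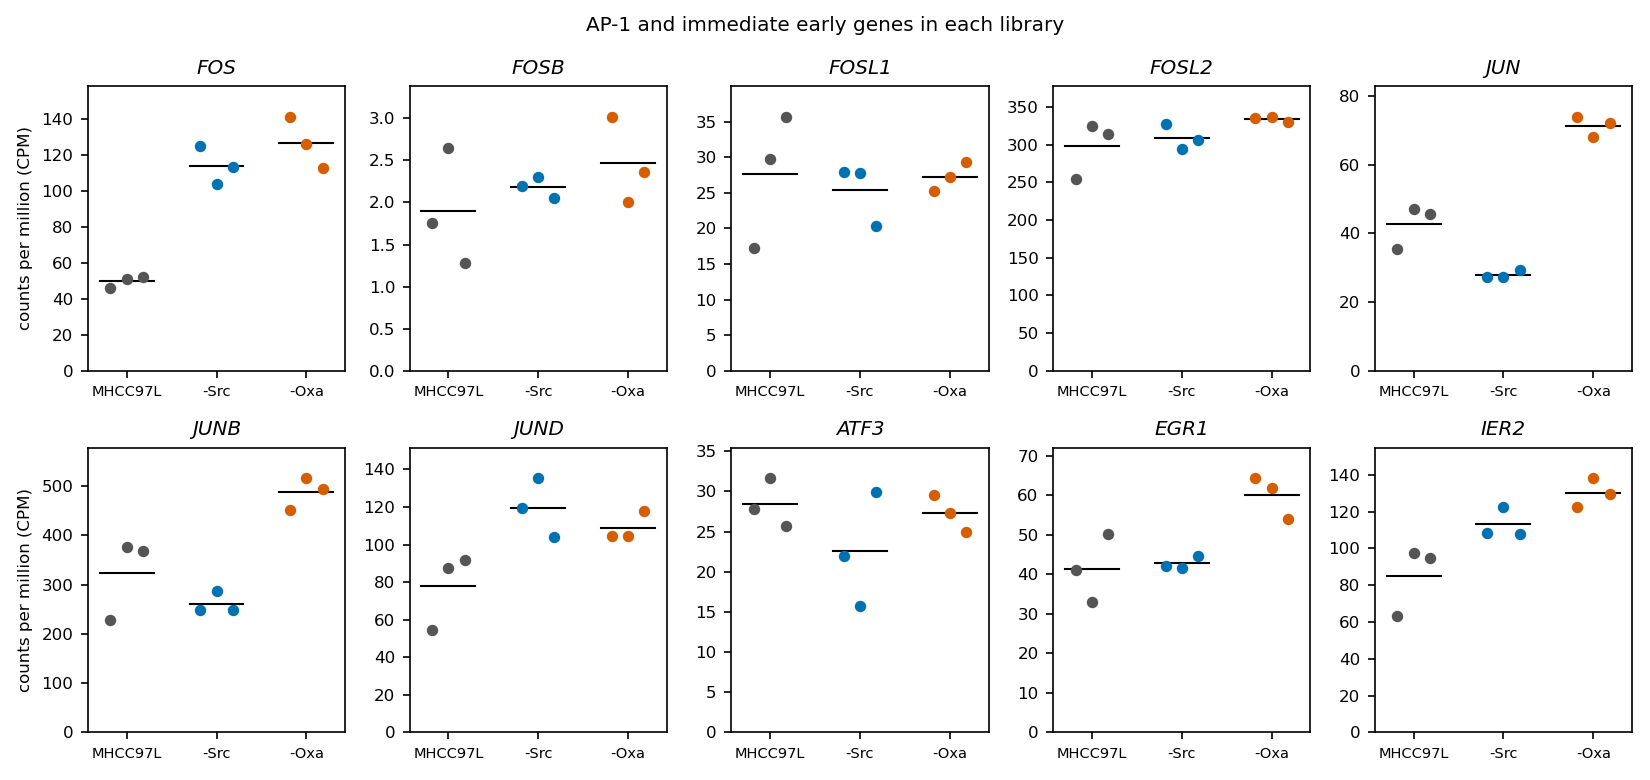
CPM of the 10 genes (vertical axes, starting at 0) in each library, with 1 point per library in the order of replicates 1 to 3 and a horizontal line at the mean of each line (MHCC97L grey, MHCC97L-Src blue, MHCC97L-Oxa orange). FOS lies at 46.3 to 52.1 CPM in MHCC97L and at 104 to 141 CPM in the 6 resistant libraries, while JUN separates all 3 lines.

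Levels between genes were compared in FPKM, which takes transcript length into account. JUNB had the highest level of the 10 genes in every line, with a mean of 166 ± 35.9 FPKM for MHCC97L, 133 ± 10.5 FPKM for MHCC97L-Src and 254 ± 17.4 FPKM for MHCC97L-Oxa (SD, n = 3). JUND and IER2 followed in each line, and their ranges overlapped. In MHCC97L, FOSL2 (27.6 ± 3.20 FPKM) and FOS (23.4 ± 1.75 FPKM) came next with overlapping ranges, and JUN, EGR1, FOSL1 and ATF3 lay between 15.6 and 7.57 FPKM, each overlapping the next. In both resistant lines FOS stood above FOSL2 without overlap, at 53.3 ± 5.02 FPKM in MHCC97L-Src and 59.3 ± 7.27 FPKM in MHCC97L-Oxa. JUN stood above EGR1 in MHCC97L-Oxa, with 25.9 against 17.1 FPKM, and below it in MHCC97L-Src, with 10.1 against 11.8 FPKM, in each case without overlap. FOSB was lowest in every line, at 0.326 to 0.492 FPKM. The authors' annotation placed 7 of the 10 genes, the Fos and Jun families, in the KEGG pathway of osteoclast differentiation, among 125 genes in all. It placed FOS, JUN and JUND in MAPK signaling and FOSL1 and JUN in Wnt signaling.

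FOS (NCBI gene number 2353, chr14:75278774-75282230, + strand, up to 4 exons), the founding Fos subunit and a classical serum-response gene, rose in both resistant lines. It stood at 46.3, 51.2 and 52.1 CPM in the 3 MHCC97L libraries, at 125, 104 and 113 CPM in MHCC97L-Src and at 141, 126 and 113 CPM in MHCC97L-Oxa. All 6 resistant libraries were above all 3 parental ones, and the ranges of the resistant lines overlapped. The log2 fold change over MHCC97L was 1.26 (SE 0.23) in MHCC97L-Src, or 2.39-fold, with an adjusted p of 0.0325 by edgeR's quasi-likelihood test. In MHCC97L-Oxa it was 1.36 (SE 0.21), or 2.56-fold, with an adjusted p of 0.0323 by edgeR. Between the resistant lines it was -0.10 (95% interval -0.38 to 0.17, edgeR adjusted p = 0.689). In bulk RNA, more cells expressing a gene and more RNA of it per cell cannot be told apart.

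The size of the FOS difference held while its call depended on the libraries in the fit. Without the divergent MHCC97L replicate 1 the log2 fold change was 1.20 (edgeR adjusted p = 0.00577) in MHCC97L-Src and 1.35 (edgeR adjusted p = 0.0015) in MHCC97L-Oxa, and after the GC and length correction it was 1.01 (edgeR adjusted p = 0.00529) and 1.14 (edgeR adjusted p = 0.00402). The edgeR adjusted p in MHCC97L-Src rose to 0.126 without MHCC97L replicate 3, and to 0.192, 0.154 and 0.142 without MHCC97L-Src replicates 1, 2 and 3. In MHCC97L-Oxa it rose to 0.139 without MHCC97L replicate 3, and to 0.26, 0.25 and 0.202 without MHCC97L-Oxa replicates 1, 2 and 3. The log2 fold change stayed at 1.20 to 1.37 for MHCC97L-Src and at 1.26 to 1.49 for MHCC97L-Oxa when any single library was left out.

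FOSL1, FOSL2 and FOSB, the other Fos genes, passed the test in no comparison. FOSL2 (chr2:28392448-28417312), which encodes Fra-2, was measured at 254 to 325 CPM for MHCC97L, 294 to 327 CPM for MHCC97L-Src and 330 to 337 CPM for MHCC97L-Oxa. The log2 fold change of FOSL2 over MHCC97L was 0.12 (95% interval -0.39 to 0.63) in MHCC97L-Src and 0.17 (95% interval -0.29 to 0.64) in MHCC97L-Oxa. Without MHCC97L replicate 1 it was 0.0073 and 0.12, and after the GC and length correction 0.05 and 0.14. FOSL1 (chr11:65892049-65900573), which encodes Fra-1 and is known as an ERK-responsive gene of invasive cells, had 17.3, 29.8 and 35.7 CPM for MHCC97L, 28.0, 27.8 and 20.3 CPM for MHCC97L-Src and 25.2, 27.2 and 29.3 CPM for MHCC97L-Oxa. The parental CPM values of FOSL1 enclosed those of both resistant lines only through the low replicate 1. In CPM the other 2 parental libraries lay above all 6 resistant ones, at the closest with 29.8 against 29.3. In FPKM MHCC97L replicate 2, at 9.72, lay below MHCC97L-Oxa replicate 3, at 10.3. With all libraries the log2 fold changes were -0.06 (95% interval -0.94 to 0.83) in MHCC97L-Src and -0.02 (95% interval -0.82 to 0.78) in MHCC97L-Oxa, and the sign of both changed with the normalization. Leaving out MHCC97L replicate 1 moved FOSL1 to -0.30 (edgeR adjusted p = 0.517) in MHCC97L-Src and to -0.21 (edgeR adjusted p = 0.327) in MHCC97L-Oxa. After the GC and length correction FOSL1 stood at -0.53 (95% interval -0.94 to -0.12, unadjusted p = 0.019, edgeR adjusted p = 0.103) in MHCC97L-Src and at -0.34 (95% interval -0.69 to 0.0068, edgeR adjusted p = 0.172) in MHCC97L-Oxa. FOSB (chr19:45467995-45475179) had only 23 to 55 counts per library and lies wholly within ERCC1, a DNA repair gene on the opposite strand with 568 to 1179 counts. Its log2 fold change over MHCC97L was 0.27 (95% interval -0.78 to 1.31) in MHCC97L-Src and 0.39 (95% interval -0.63 to 1.40) in MHCC97L-Oxa, against 0.20 and 0.37 without MHCC97L replicate 1 and -0.0319 and 0.21 after the correction. The counting's strand setting is not given in the sources used here, so that reads of FOSB and ERCC1 may not be separable. The same holds for FOSL2 and the antisense gene FLJ31356, which overlap over 2225 bases, and for IER2 and the antisense gene AC011446.2, which overlap over 1123 bases.

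JUN (NCBI gene number 3725, chr1:58780788-58784327, - strand, 1 exon), the founding Jun subunit, was lowest in MHCC97L-Src and highest in MHCC97L-Oxa. It had 35.4, 47.2 and 45.7 CPM for MHCC97L, 27.3, 27.3 and 29.4 CPM for MHCC97L-Src and 74.0, 68.1 and 72.1 CPM for MHCC97L-Oxa. The ranges of the 3 lines did not overlap. Between the resistant lines the log2 fold change was -1.30 (SE 0.13), so that JUN was 2.46-fold lower in MHCC97L-Src than in MHCC97L-Oxa (edgeR adjusted p = 0.000385). JUN was called in that comparison in all 6 fits that left out 1 library, with log2 fold changes from -1.34 to -1.27.

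Against MHCC97L neither resistant line passed the test for JUN on the uncorrected counts. In MHCC97L-Src the log2 fold change was -0.55 (SE 0.29, edgeR adjusted p = 0.225), and after the GC and length correction it was -0.82 (edgeR adjusted p = 0.0092). In MHCC97L-Oxa it was 0.74 (SE 0.24, edgeR adjusted p = 0.185), and after the correction it was 0.58 (edgeR adjusted p = 0.0144). Without MHCC97L replicate 1 JUN stood at -0.68 (edgeR adjusted p = 0.0873) and 0.67 (edgeR adjusted p = 0.00599). Without MHCC97L replicate 2 the JUN difference in MHCC97L-Oxa was 0.94 (edgeR adjusted p = 0.0476).

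JUNB (NCBI gene number 3726, chr19:12791496-12793315, + strand, 1 exon), a Jun protein that can restrain JUN on shared sites, also differed between the resistant lines. It had 229, 376 and 368 CPM for MHCC97L, 248, 287 and 248 CPM for MHCC97L-Src and 451, 516 and 495 CPM for MHCC97L-Oxa. MHCC97L-Oxa lay above both other lines, and MHCC97L-Src overlapped MHCC97L only through the low parental replicate 1. JUNB was 1.79-fold lower in MHCC97L-Src than in MHCC97L-Oxa, with a log2 fold change of -0.84 (SE 0.12, edgeR adjusted p = 0.00457). The difference was called in all 6 fits that left out 1 library, with log2 fold changes from -0.98 to -0.75, and the call was lost with all 9 libraries in a single fit (edgeR adjusted p = 0.24). JUNB overlaps HOOK2 on the opposite strand over all of its 1820 bases. The HOOK2 counts were 374, 407 and 329 for MHCC97L-Src and 485, 454 and 485 for MHCC97L-Oxa, a log2 fold change of -0.24 (SE 0.17, edgeR adjusted p = 0.471), against 4292 to 9254 counts of JUNB in the same libraries.

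Against MHCC97L the log2 fold change of JUNB was -0.25 (SE 0.28, edgeR adjusted p = 0.561) in MHCC97L-Src and 0.58 (SE 0.26, edgeR adjusted p = 0.226) in MHCC97L-Oxa. After the GC and length correction JUNB passed the test in MHCC97L-Src, at -0.79 (edgeR adjusted p = 0.00412), and its value in MHCC97L-Oxa was 0.19 (edgeR adjusted p = 0.18). Without MHCC97L replicate 1 JUNB stood at -0.45 (edgeR adjusted p = 0.161) and 0.44 (edgeR adjusted p = 0.0139).

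The summed level of the fibroblast markers, like JUN, was lowest in MHCC97L-Src without overlap. The sum of 5 fibroblast markers (COL1A1, COL3A1, DCN, LUM and PDGFRB), genes that carcinoma cells of mesenchymal shape can also express, was 145 to 228 CPM for MHCC97L, 84.6 to 100 CPM for MHCC97L-Src and 168 to 186 CPM for MHCC97L-Oxa. COL3A1 had only 1 to 9 counts per library, and the other 4 were above the floor of 3 counts in every library. COL1A1 did not follow the sum against MHCC97L. It had 1163, 1022 and 1100 counts for MHCC97L-Src and 1083, 1159 and 1096 for MHCC97L (edgeR adjusted p = 0.814). DCN, LUM and PDGFRB were lower in MHCC97L-Src than in MHCC97L without overlap, and edgeR called none of them. After the GC and length correction PDGFRB was called at -1.68 (edgeR adjusted p = 0.00305). DCN was then at -0.705 (edgeR adjusted p = 0.278) and LUM at -1.27 (edgeR adjusted p = 0.0576). The summed level of 4 leukocyte markers, highest in MHCC97L-Oxa like JUN and JUNB but not lowest in MHCC97L-Src, was 49.6 to 79.9 CPM, 72.3 to 90.5 CPM and 144 to 148 CPM in the same order, while PTPRC and CD3E, which define leukocytes and T cells, were at or under the floor in all libraries. The part of either list in the JUN and JUNB values was not tested.

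JUND (NCBI gene number 3727, chr19:18279760-18281622, - strand, up to 2 exons), the least inducible Jun protein, was not called in any comparison. It had 54.6, 87.7 and 91.8 CPM for MHCC97L, 119, 135 and 104 CPM for MHCC97L-Src and 105, 105 and 118 CPM for MHCC97L-Oxa. All 6 resistant libraries lay above the parental ones, and the resistant lines overlapped. The log2 fold change over MHCC97L was 0.68 (SE 0.30, edgeR adjusted p = 0.171) in MHCC97L-Src and 0.48 (SE 0.27, edgeR adjusted p = 0.286) in MHCC97L-Oxa. JUND has the highest GC content of the 10 genes, and after the GC and length correction these values were 0.11 (95% interval -0.16 to 0.37) and 0.00 (95% interval -0.24 to 0.24). With MHCC97L replicate 1 left out, JUND stood at 0.48 (edgeR adjusted p = 0.189) in MHCC97L-Src and at 0.34 (edgeR adjusted p = 0.0535) in MHCC97L-Oxa.

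The make-up of each family was compared as a share of its summed FPKM within each library. JUND made up 25.7%, 25.6% and 27.0% of the Jun family in the MHCC97L libraries, 41.6%, 40.9% and 37.8% for MHCC97L-Src and 24.4%, 22.5% and 25.4% for MHCC97L-Oxa. The MHCC97L-Src libraries stood apart from all others, and MHCC97L replicate 1 lay between the other parental libraries in this share. The share of JUNB was 67.5 ± 0.67% for MHCC97L, 55.7 ± 1.65% for MHCC97L-Src and 68.8 ± 1.76% for MHCC97L-Oxa (SD, n = 3), and that of JUN was 6.41 ± 0.49%, 4.25 ± 0.50% and 7.05 ± 0.64%. The summed FPKM of the Jun genes was 245 ± 52.6 for MHCC97L, 239 ± 20.8 for MHCC97L-Src and 368 ± 22.4 for MHCC97L-Oxa. MHCC97L and MHCC97L-Src overlapped in this sum and differed in the make-up, while MHCC97L-Oxa had the highest sum and a JUND share just below the parental range.

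In the Fos family, FOS made up 39.0 ± 2.17% of the summed FPKM for MHCC97L, 58.8 ± 1.13% for MHCC97L-Src and 58.7 ± 3.27% for MHCC97L-Oxa (SD, n = 3). FOSL2 made up 45.8 ± 1.09%, 31.6 ± 1.18% and 31.4 ± 1.85%, and FOSL1 14.7 ± 3.04%, 9.19 ± 1.44% and 9.37 ± 1.44%, in the same order. The summed FPKM of the Fos genes was 60.3 ± 7.59, 90.7 ± 6.89 and 101 ± 6.81. The ratio of FOS to JUN in FPKM was 1.52 ± 0.13 for MHCC97L, 5.29 ± 0.60 for MHCC97L-Src and 2.29 ± 0.27 for MHCC97L-Oxa, and no library of any line fell in the range of another line. Each share or ratio without overlap between lines gave 0.1 in a two-sided exact permutation test, the smallest p that 3 against 3 libraries allow, and 0.15 after Benjamini-Hochberg adjustment over 39 such exact tests.

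**Figure D2:**
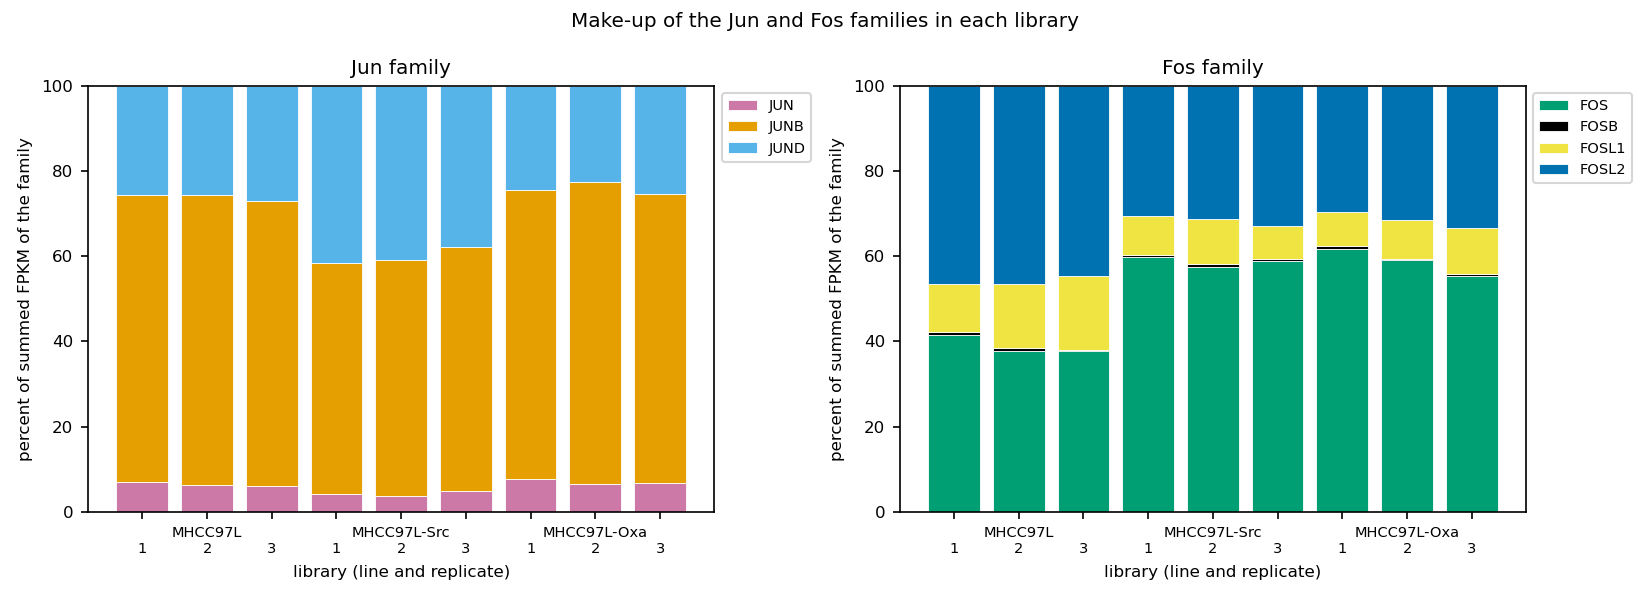
Share of each gene in the summed FPKM of the Jun family (left) and the Fos family (right), in percent (vertical axis), with 1 bar per library (horizontal axis: line and replicate). JUND takes 37.8% to 41.6% of the Jun bars in MHCC97L-Src and at most 27.0% elsewhere, and FOS takes 55.3% to 61.8% of the Fos bars in the resistant lines against 37.7% to 41.5% in MHCC97L.

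ATF3 (chr1:212565334-212620777), a bZIP protein induced by many forms of stress, showed no difference past the test. It had 27.8, 31.7 and 25.7 CPM for MHCC97L, 22.0, 15.7 and 29.9 CPM for MHCC97L-Src and 29.6, 27.3 and 25.0 CPM for MHCC97L-Oxa, and all ranges overlapped. Its log2 fold change over MHCC97L was -0.28 (95% interval -1.03 to 0.46) in MHCC97L-Src and -0.04 (95% interval -0.65 to 0.56) in MHCC97L-Oxa, the latter with a sign that changed with the normalization. Without MHCC97L replicate 1 the values were -0.31 and -0.021, and after the GC and length correction they were -0.09 and 0.07.

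EGR1 (chr5:138465490-138469315), a zinc finger factor that is not part of AP-1, had 41.1, 33.0 and 50.3 CPM for MHCC97L, 42.1, 41.6 and 44.6 CPM for MHCC97L-Src and 64.4, 62.0 and 54.1 CPM for MHCC97L-Oxa. MHCC97L-Oxa lay above both other lines, and MHCC97L-Src lay inside the parental range. Its log2 fold change between the resistant lines was -0.44 (SE 0.13, unadjusted p = 0.00629), which did not pass with the edgeR adjusted p of 0.0891, and after the GC and length correction it was -0.52 (edgeR adjusted p = 0.00861). The adjusted p of EGR1 was also under the threshold in 5 further alternatives of 18, among them total counts in place of TMM normalization (edgeR adjusted p = 0.0492) and the fit without MHCC97L-Src replicate 2 (edgeR adjusted p = 0.0214). Against MHCC97L the log2 fold change was 0.12 (SE 0.27, edgeR adjusted p = 0.783) in MHCC97L-Src and 0.55 (SE 0.24, edgeR adjusted p = 0.225) in MHCC97L-Oxa. EGR1 stood without MHCC97L replicate 1 at 0.10 (edgeR adjusted p = 0.82) and 0.59 (edgeR adjusted p = 0.0734), and after the GC and length correction -0.17 (edgeR adjusted p = 0.612) and 0.34 (edgeR adjusted p = 0.321).

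IER2 (chr19:13150415-13154908), an immediate early nuclear protein whose gene lies 357 kb from JUNB, had 63.4, 97.5 and 94.7 CPM for MHCC97L, 109, 122.5 and 108 CPM for MHCC97L-Src and 122.7, 138 and 130 CPM for MHCC97L-Oxa. In CPM the ranges of the 3 lines did not overlap, and MHCC97L was lowest. The resistant lines were barely apart, with 122.5 CPM in MHCC97L-Src replicate 2 and 122.7 CPM in MHCC97L-Oxa replicate 1. In FPKM these 2 libraries overlapped, at 87.9 and 87.0. Its log2 fold change over MHCC97L was 0.47 (SE 0.28, edgeR adjusted p = 0.269) in MHCC97L-Src and 0.61 (SE 0.25, edgeR adjusted p = 0.213) in MHCC97L-Oxa. In MHCC97L-Oxa it passed the test after the GC and length correction, at 0.37 (edgeR adjusted p = 0.0463), and without MHCC97L replicate 1, at 0.49 (edgeR adjusted p = 0.0107). In MHCC97L-Src the corrected value was 0.08 (edgeR adjusted p = 0.591) and that without MHCC97L replicate 1 was 0.30 (edgeR adjusted p = 0.356). Between the resistant lines the log2 fold change of IER2 was -0.14 (SE 0.12, edgeR adjusted p = 0.562), which did not pass the test. After the GC and length correction it was -0.29 (edgeR adjusted p = 0.0331).

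Across the 10 genes, MHCC97L-Src differed from MHCC97L at an adjusted p under 0.05 in 1 gene, FOS, where 2.13% of the 12037 genes tested were called by edgeR, 1.43% higher and 0.698% lower. The unadjusted p was under 0.05 in 1 of the 10, against 29.5% of all genes, and the CPM ranges did not overlap in 4 of the 10 (FOS, JUND and IER2 higher and JUN lower), against 30.5%. After the GC and length correction 3 of the 10 were called (FOS, JUN and JUNB), against 10.7% of all genes. The median log2 fold change was 0.12 over the 10 genes and -0.16 over all genes tested, and the correction moved these to -0.06 and -0.05.

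In MHCC97L-Oxa against MHCC97L, FOS was again the 1 gene called of 10, where 0.953% of 12064 genes were called by edgeR, 0.771% higher and 0.182% lower. The unadjusted p was under 0.05 in 3 of the 10 (FOS, JUN and IER2), against 22.4% of all genes. The ranges did not overlap in 7 of the 10 (FOS, FOSL2, JUN, JUNB, JUND, EGR1 and IER2), all higher in MHCC97L-Oxa, against 29.5% of all genes in either direction. After the correction 3 were called (FOS, JUN and IER2), against 13.0%, and without MHCC97L replicate 1 there were 4, where 2251 of 12168 genes were called. The median log2 fold change was 0.52 over the 10 genes and -0.19 over all genes, and 0.20 and -0.08 after the correction.

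Between MHCC97L-Src and MHCC97L-Oxa, 2 of the 10 genes were called (JUN and JUNB, both lower in MHCC97L-Src), against 4.64% of 11994 genes called by edgeR, 2.12% higher and 2.52% lower. The unadjusted p was under 0.05 in 3 of the 10 (JUN, JUNB and EGR1), against 19.5%. The CPM ranges did not overlap in 5 of the 10 (FOSL2, JUN, JUNB, EGR1 and IER2), all lower in MHCC97L-Src, against 27.6% in either direction. After the correction 4 were called (JUN, JUNB, EGR1 and IER2), against 9.69%. This comparison does not use the parental libraries, and the common dispersion of its counts was 0.0334, against 0.174 and 0.160 in the comparisons of MHCC97L-Src and MHCC97L-Oxa with MHCC97L.

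**Figure D3:**
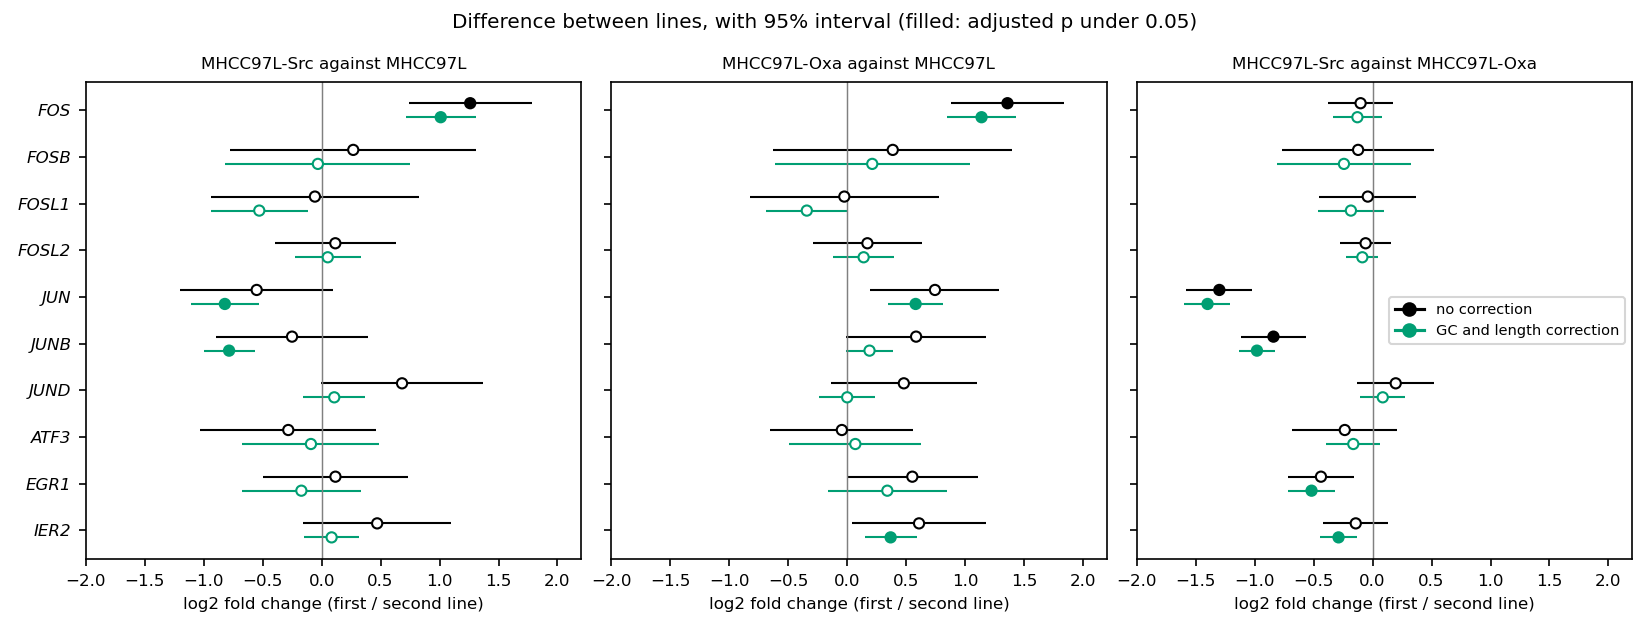
Log2 fold changes (horizontal axes) of the 10 genes in the 3 comparisons, with their 95% intervals, from the counts as deposited (black) and with the GC and length correction (green), where filled points have an adjusted p under 0.05. FOS is filled in both comparisons with MHCC97L and JUN and JUNB in the comparison of the resistant lines, in either colour, while JUND moves from 0.68 to 0.11 with the correction in MHCC97L-Src.

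The pathway around the 10 genes was described with 5 lists. Of 15 genes of other bZIP partners, 12 were tested in each comparison. In MHCC97L-Src against MHCC97L the GC-corrected fit called 2 of them, against 10.7% of all genes. Without the correction 0 were called by edgeR, against 2.13% of all genes, and 8 had an unadjusted p under 0.05, against 29.5%. The lowest p there belonged to MAFF, a small Maf protein, at 1.44 on the log2 scale (SE 0.37, edgeR adjusted p = 0.0842). MAFK, another small Maf protein, rose in MHCC97L-Oxa, with 2337, 2730 and 2618 counts against 788, 1012 and 1051 in MHCC97L and a log2 fold change of 1.42 (SE 0.22, edgeR adjusted p = 0.0325). In MHCC97L-Src against MHCC97L-Oxa, 2 genes of the list were called, both lower, against 4.64% of all genes called and 2.52% called lower. JDP2, a bZIP protein that represses AP-1 as a partner of Jun, reached counts of 1412, 1350 and 1274 for MHCC97L-Src and of 2271, 2620 and 2504 for MHCC97L-Oxa, a log2 fold change of -0.76 (SE 0.12, edgeR adjusted p = 0.00712). NFE2L2, which encodes NRF2, was lower by a log2 fold change of -0.67 (SE 0.16, edgeR adjusted p = 0.0392), and lost the call after the GC and length correction (edgeR adjusted p = 0.114). The median log2 fold change of the list was -0.58, -0.18 and -0.26 in the order MHCC97L-Src against MHCC97L, MHCC97L-Oxa against MHCC97L and MHCC97L-Src against MHCC97L-Oxa. Over all genes it was -0.16, -0.19 and -0.02. After the GC and length correction the medians of the list were 0.01, 0.14 and -0.11, beside -0.05, -0.08 and 0.03 over all genes.

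Of 26 other immediate early genes, 22 were tested in MHCC97L-Src against MHCC97L, with 2 called higher and 1 lower. CYR61, a secreted matrix protein, had 3607, 4451 and 4872 counts for MHCC97L, 655, 594 and 689 for MHCC97L-Src and 1431, 1658 and 1502 for MHCC97L-Oxa. The 3 lines did not overlap, and the log2 fold change was -2.64 (SE 0.24, edgeR adjusted p = 0.0033) in MHCC97L-Src and -1.50 (SE 0.21, edgeR adjusted p = 0.0271) in MHCC97L-Oxa. IER3, an early response gene of cell survival, rose on the log2 scale by 1.57 (SE 0.27, edgeR adjusted p = 0.0241) in MHCC97L-Src and by 1.44 (SE 0.23, edgeR adjusted p = 0.0387) in MHCC97L-Oxa. NR4A2, an orphan nuclear receptor, was counted 193, 119 and 66 times for MHCC97L and 674, 325 and 825 times for MHCC97L-Src, a log2 fold change of 2.37 (SE 0.49, edgeR adjusted p = 0.0474). In MHCC97L-Oxa NR4A2 had 691, 591 and 528 counts and a log2 fold change of 2.28 (SE 0.42, edgeR adjusted p = 0.0528), which passed after the GC and length correction, at 2.54 (edgeR adjusted p = 0.00252). The resistant lines overlapped in NR4A2, with a log2 fold change of 0.09 (SE 0.25, edgeR adjusted p = 0.875) between them. In MHCC97L-Oxa 23 genes of the list were tested, with 1 called higher and 1 lower. Between the resistant lines 2 of 23 were lower in MHCC97L-Src, CYR61 at -1.14 (SE 0.12, edgeR adjusted p = 0.000651) and KLF4, a zinc finger factor, at -0.92 (SE 0.19, edgeR adjusted p = 0.0213). After the GC and length correction 4 were called higher and 3 lower in MHCC97L-Src, 6 and 1 in MHCC97L-Oxa, and 0 and 6 between the resistant lines. Of all genes, 10.7%, 13.0% and 9.69% were called by these corrected fits, and 2.13%, 0.953% and 4.64% without the correction. The median log2 fold change of the list was 0.29, 0.45 and -0.12 in the order of the comparisons, beside -0.16, -0.19 and -0.02 over all genes.

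Of 22 textbook AP-1 target genes, 15 were tested in each comparison. VEGFA, an angiogenic growth factor, rose in MHCC97L-Oxa by 1.21 on the log2 scale (SE 0.19, edgeR adjusted p = 0.0325) and was lower in MHCC97L-Src than in MHCC97L-Oxa, at -0.55 (SE 0.10, edgeR adjusted p = 0.0129). On the uncorrected counts 0 of the list were called higher and 1 lower in MHCC97L-Src, 1 and 0 in MHCC97L-Oxa, and 0 and 2 between the resistant lines. After the GC and length correction 1 was called higher and 5 lower in MHCC97L-Src, 4 and 1 in MHCC97L-Oxa, and 0 and 5 between the resistant lines. The corrected fits called 10.7%, 13.0% and 9.69% of all genes in the same order, and the uncorrected fits 2.13%, 0.953% and 4.64%. The list's median log2 fold change was 0.07, 0.16 and -0.24 in the order of the comparisons.

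None of the 19 upstream kinases and SRF cofactors was called by edgeR in any comparison, with an unadjusted p under 0.05 in 3, 2 and 3 of them and 1 call in each GC-corrected fit. The lowest p between the resistant lines belonged to MAP2K1, which encodes the kinase MEK1, at -0.41 (SE 0.15, edgeR adjusted p = 0.174), and ELK4, a partner of serum response factor, at -0.46 (SE 0.19, edgeR adjusted p = 0.215). Against MHCC97L they were MAP2K4 (-2.07, SE 0.74, edgeR adjusted p = 0.126) and RPS6KA3 (-2.09, SE 0.83, edgeR adjusted p = 0.143) in MHCC97L-Src, and MAP2K4 (-1.74, SE 0.71, edgeR adjusted p = 0.213) and MAP2K1 (0.54, SE 0.22, edgeR adjusted p = 0.214) in MHCC97L-Oxa. Of these, MAP2K4 and RPS6KA3 had 574 and 990 counts in MHCC97L replicate 1 against 64 and 48 in replicate 2. None of 6 heat shock genes, induced by heat and handling, was called either, with an unadjusted p under 0.05 in 2 in each comparison and 2, 3 and 1 calls in the GC-corrected fits. Beside both lists, 29.5%, 22.4% and 19.5% of all genes had an unadjusted p under 0.05 in the order of the comparisons. Of all genes, 2.13%, 0.953% and 4.64% were called, and 10.7%, 13.0% and 9.69% in the GC-corrected fits. HSPH1, a co-chaperone, and HSPA8, the constitutive HSC70 chaperone, had the lowest p against MHCC97L, at -2.24 (SE 0.67, edgeR adjusted p = 0.105) and -1.66 (SE 0.56, edgeR adjusted p = 0.117) on the log2 scale in MHCC97L-Src and at -2.16 (SE 0.70, edgeR adjusted p = 0.188) and -1.15 (SE 0.45, edgeR adjusted p = 0.208) in MHCC97L-Oxa. HSPA8 had 61716, 20387 and 16048 parental counts, with replicate 1 far above the others. In MHCC97L-Src against MHCC97L-Oxa, HSPA1B was at 0.37 (SE 0.10, edgeR adjusted p = 0.0696) and HSPA1A at 0.30 (SE 0.11, edgeR adjusted p = 0.156), genes of near-identical sequence whose reads may be shared.

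**Figure D4:**
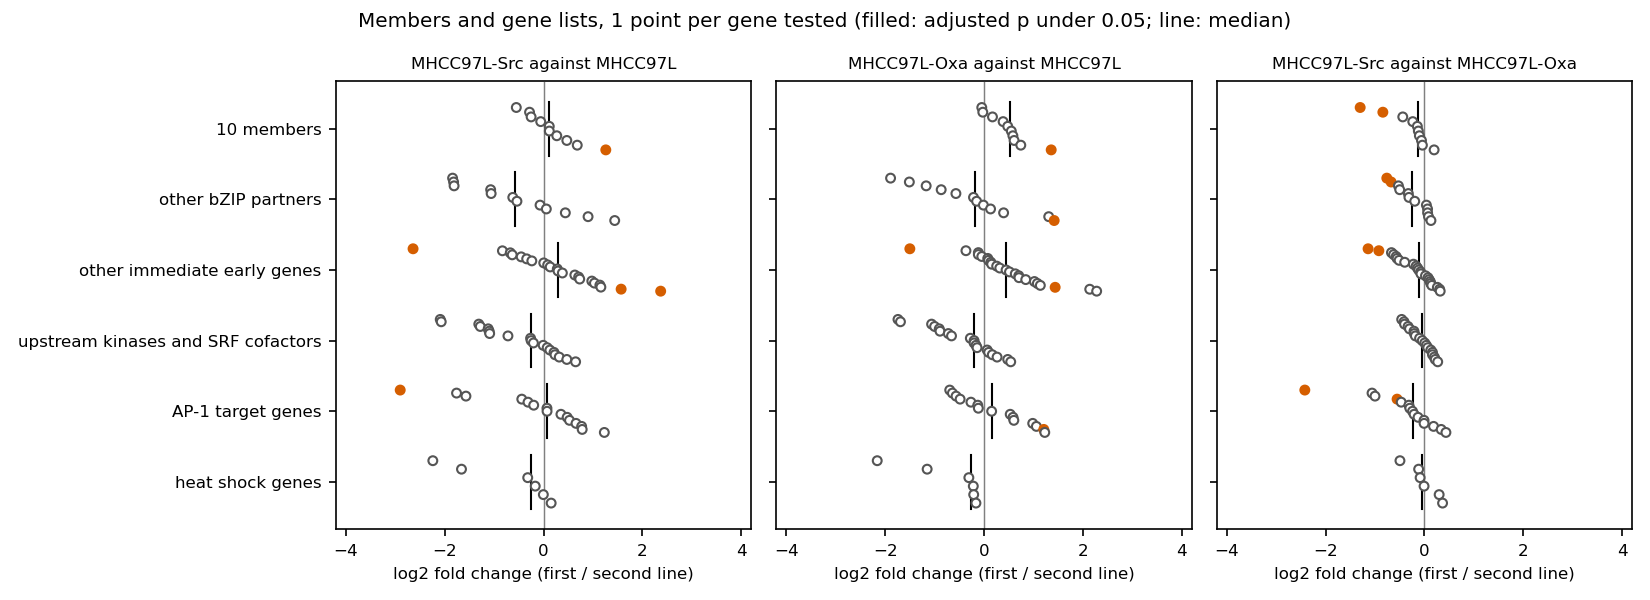
Log2 fold changes (horizontal axes) of the 10 genes and of the genes of 5 lists in the 3 comparisons, with 1 point per gene tested, filled where the edgeR adjusted p was under 0.05, and a vertical bar at each median. The 10 genes have their median at 0.52 in MHCC97L-Oxa against MHCC97L and at 0.12 in MHCC97L-Src against MHCC97L, and the filled points of the lists between the resistant lines all lie below 0.

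The marker lists gave few calls. Of the fibroblast markers, DCN (-1.89, SE 0.26, edgeR adjusted p = 0.00294) and PDGFRB (-1.32, SE 0.19, edgeR adjusted p = 0.00395) were lower on the log2 scale in MHCC97L-Src than in MHCC97L-Oxa, as was CD68 of the leukocyte list (-0.75, SE 0.14, edgeR adjusted p = 0.0116). CDH5 of the endothelial list, with 188 to 236 counts in MHCC97L-Src, 17 to 28 in MHCC97L and 7 to 12 in MHCC97L-Oxa, was higher in MHCC97L-Src than in MHCC97L-Oxa (4.61, SE 0.28, edgeR adjusted p = 1.7e-05) and than in MHCC97L (3.30, SE 0.46, edgeR adjusted p = 0.0139). Of the hepatocyte list, SERPINA1, which encodes alpha-1 antitrypsin, was called higher in MHCC97L-Oxa than in MHCC97L (edgeR adjusted p = 0.0323), with 31, 14 and 14 counts against 1 in each parental library, and had 22, 9 and 10 counts in MHCC97L-Src. KRT8 and KRT18 were higher in MHCC97L-Src than in MHCC97L-Oxa by 0.87 (SE 0.16, edgeR adjusted p = 0.0136) and 0.91 (SE 0.14, edgeR adjusted p = 0.00471), opposite in sign to JUN and JUNB in that comparison.

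The genes whose log2 CPM was most like that of FOS over the 9 libraries were ARNT2, with a Pearson r of 0.989, NPAS2, with 0.987, and ZNF395, with 0.986, out of 11807 genes. ARNT2 and NPAS2 encode bHLH-PAS factors, and ZNF395 encodes a zinc finger protein. ARNT2 had 58, 67 and 59 counts for MHCC97L, 495, 315 and 444 for MHCC97L-Src and 549, 537 and 461 for MHCC97L-Oxa. The 9 points are 3 lines of 3 libraries each and are not independent, and the value describes these libraries alone.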

How the data were processed

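The authors deposited reads counted per gene as raw counts, and FPKM values (fragments scaled to transcript length and library size) of the same genes and libraries, both with GO and KEGG annotation. The submitters' processing notes name Trimmomatic 0.36, HISAT2 2.2.1.0 and GRCh38.p12, and the counting program is not given in the sources used here. Libraries were stranded and poly(A)-selected, and were grouped by the treatment in their labels.

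CPM values were counts divided by the library total. Lines were compared by edgeR's quasi-likelihood test (edgeR 4.0.16, R 4.3.3) on the 6 libraries of each comparison, with filterByExpr (minimum count 10), TMM normalization and Benjamini-Hochberg adjustment over all genes tested, called at an adjusted p under 0.05. Standard errors and 95% intervals belong to the log2 fold change. The floor was 3 counts (0.165 to 0.177 CPM), for counting error only. The GC and length correction used offsets from natural splines with 5 degrees of freedom on GC content and log2 length of the longest GENCODE release 29 transcript, found for 19343 of 20030 genes. Alternatives were DESeq2 1.42.0, limma 3.58.1 (limma-trend on log2 FPKM values with a pseudocount), other normalizations and filters, and leaving out single libraries. Scripts were tested on simulated data. Promoter motifs, shares and exact permutation tests used Python 3.11.15, pandas 2.3.3 and SciPy 1.17.1.

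The genes named are the 10 members. Of each pathway list, the rule takes the genes with an adjusted p under 0.05, at most the 4 of lowest p per comparison, or else the 2 of lowest p, and it adds the 3 genes most like FOS; some list genes that it takes are not reported here. The members and lists were chosen with earlier results of these data known. HOOK2 and ERCC1 were named for overlapping a member. P-values set the difference between lines against the spread between libraries of the same line. Each drug is represented by a single resistant line, so they do not cover variation between separately derived lines. The drug and the history of its line cannot be told apart.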

Additional observations from a re-analysis of the deposited data

Results flagged for a closer look

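The change of JUN differed between the resistant lines when MHCC97L-Src was compared directly with MHCC97L-Oxa, with a log2 fold change of -1.30 (edgeR adjusted p = 0.000385) and no overlap between the 3 libraries of each line. The change of JUNB differed in the same comparison, with a log2 fold change of -0.84 (edgeR adjusted p = 0.00457), also without overlap. No explanation was tested for either.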

How the results depend on the processing

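Of 537 values of single genes under the alternatives, 482 kept their sign and their side of the threshold, 16 passed it newly, 11 lost it and 28 changed sign. The number of the 10 genes called was 1 in MHCC97L-Src against MHCC97L, 3 after the GC and length correction, 0 with this correction and the replicate block, and 0 to 1 when single libraries were left out. In MHCC97L-Oxa against MHCC97L it was 1, and 2 by DESeq2's Wald test, 0 with the replicate block (FOS log2 fold change 1.36, adjusted p = 0.0611), 3 after the GC and length correction and 0 to 4 with single libraries left out. Between the resistant lines it was 2, and 1 with all 9 libraries in a single fit, 4 after the correction and 2 to 3 with single libraries left out. Whether the replicate numbers pair the libraries is not settled. In deviations from the mean of the line, correlations of same-numbered libraries ran from -0.65 to 0.217, from -0.215 to 0.444 and from -0.291 to 0.0308 in the 3 comparisons. Those of differently numbered libraries ran from -0.526 to 0.658 in MHCC97L-Src against MHCC97L. Such correlations cannot exclude a pairing, because deviations within 3 libraries depend on each other. Signs changed for genes near 0. In MHCC97L-Src against MHCC97L these were FOSB after the correction (-0.0319), EGR1 after it without and with the replicate block (-0.17 and -0.14), and FOSL1 with DESeq2's size factors or Wald test (0.038 and 0.038) and without MHCC97L replicates 2 and 3 or MHCC97L-Src replicate 3 (-0.30 to 0.18 over all 6 such fits). In MHCC97L-Oxa against MHCC97L they were FOSL1 with DESeq2's size factors and Wald test (0.0474 and 0.0475), no filter (0.0266), the replicate block (0.054), limma-trend on log2(FPKM + 1) with and without a filter (0.10 and 0.10) or log2(FPKM + 0.1) (0.11), and single libraries left out (-0.21 to 0.21). They were also ATF3 with DESeq2's size factors and Wald test (0.024 and 0.0244), no filter (0.00529), the correction without and with the replicate block (0.0695 and 0.114) and single libraries left out (-0.12 to 0.17). Between the resistant lines FOSB (-0.261 to 0.0554) and FOSL1 (-0.18 to 0.15) changed sign with single libraries left out. The number of all genes called ran from 22 to 3419 in MHCC97L-Src, from 2 to 2705 in MHCC97L-Oxa and from 167 to 1617 between the resistant lines with single libraries left out, against 256, 115 and 556 with all, and DESeq2's Wald test called 2114, 893 and 839. The replicate block called 988 genes in MHCC97L-Src against MHCC97L. The cause of these differences was not tested. FOSB, with 23 to 55 counts, is the gene most limited by depth.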
